A study of Mus musculus with 2 samples.

Results

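Alternative last exons of annotated transcripts were examined in long-read RNA sequencing of the left cerebral cortex of mice. A last exon carries the 3′ end of an mRNA: its stop codon, its 3′ untranslated region and its poly(A) site. A gene has alternative last exons when different 3′ splice sites (acceptors) end different transcripts, and the choice can change both the end of the protein and the untranslated region. In the brain such choices are known to set membrane anchors, scaffold binding and the site of the mRNA in the cell.

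The series held 1 group of 2 libraries, replicate 1 and replicate 2, each made from 2 µg of total RNA. The tissue came from female B6CASTF1/J mice, an F1 hybrid of the strains C57BL/6J and CAST/EiJ, at an age of 14 days. There was no treatment and no control group. Replicate 1 may be pooled tissue of 3 females, going by its label, and the donor entries of the libraries name the strain alone. A p-value between the libraries therefore covers counting error only and says nothing of animals. Mouse reads numbered 1072344 in replicate 1 and 753520 in replicate 2.

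Multi-exon models of the class Known were grouped by gene and by the acceptor of their last intron, and an acceptor counted when it had 10 or more reads over both libraries. Of 8064 genes with at least 1 such acceptor, 256 had 2 or more. In 120 of these the last exons overlapped one another and the genes were left out. The remaining 136 genes (1.69% of 8064) with 282 last exons are described here, 127 genes with 2 last exons, 8 with 3 and 1 with 4. They held 21773 reads in replicate 1 and 13651 in replicate 2, which is 3.16% and 2.97% of the multi-exon Known reads. The members were thus selected on these read totals, and the shares below are a description of them. A share is the percentage of the reads of a gene's member last exons that lie on 1 of them. The proximal last exon is the one nearest the start of the gene and the distal one the farthest.

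The annotated ends of 8 genes show what the choice of last exon does to the reading frame. The lines give the last exon from its first base to the stop codon, 5′ to 3′ on the transcribed strand, from the GENCODE M21 transcript sequences (GRCm38, mm10), which follow the C57BL/6J reference. Capitals mark the stop codon, and in Cdc42 the last 4 codons with the stop codon. In Prkcb, Homer1 and Slc1a2 the proximal acceptor also begins an internal exon of another annotated transcript of the gene. The first part of those proximal stretches is therefore not particular to that end, and the lines do not mark where the shared part stops.

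Cdc42 encodes a small GTPase of the actin cytoskeleton, which ends in a prenylation signal of the CAAX type. Both last exons are spliced to the same donor, and both add 29 codons and a stop. They lie on the minus strand at chr4:137322530-137322619 (proximal, Cdc42-201) and chr4:137321103-137321192 (distal, Cdc42-202).
Cdc42 proximal: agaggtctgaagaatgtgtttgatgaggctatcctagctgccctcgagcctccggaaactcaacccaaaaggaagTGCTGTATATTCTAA
Cdc42 distal: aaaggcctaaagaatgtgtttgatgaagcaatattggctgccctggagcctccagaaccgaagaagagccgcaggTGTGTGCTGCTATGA
Compared base by base from the acceptor, 59 of 90 positions were the same (65.6%), and the stretch in capitals, which holds the CAAX codons, differs between them. The form ending at the proximal exon is known from brain, and the other form is found in most tissues.

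Prkcb encodes the kinase PKC beta, whose forms beta II and beta I differ at the C terminus. The proximal exon (chr7:122627656-122627814, plus strand, Prkcb-202) gives a frame of 673 codons, the length of beta II, and the distal exon (chr7:122633745-122633897, Prkcb-201) 671 codons, the length of beta I.
Prkcb proximal: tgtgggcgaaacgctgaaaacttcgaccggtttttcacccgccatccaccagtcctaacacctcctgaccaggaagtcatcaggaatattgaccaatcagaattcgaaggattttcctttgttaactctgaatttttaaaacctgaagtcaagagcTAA
Prkcb distal: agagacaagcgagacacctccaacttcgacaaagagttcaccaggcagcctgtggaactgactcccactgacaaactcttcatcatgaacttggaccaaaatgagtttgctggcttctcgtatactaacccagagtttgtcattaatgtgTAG
Of 153 positions compared, 46 were the same (30.1%).

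Lamp2 encodes a lysosomal membrane glycoprotein with 3 known ends: each last exon carries the membrane span and the short cytoplasmic tail. From proximal to distal they are the exons of the known forms C, A and B. The A form is known as a receptor of chaperone-mediated autophagy. The exons lie on the minus strand at chrX:38421712-38421851, chrX:38405432-38405571 and chrX:38402139-38402281.
Lamp2 proximal: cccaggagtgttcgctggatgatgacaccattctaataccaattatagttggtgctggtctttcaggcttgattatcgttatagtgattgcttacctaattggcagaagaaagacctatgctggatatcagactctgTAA
Lamp2 middle: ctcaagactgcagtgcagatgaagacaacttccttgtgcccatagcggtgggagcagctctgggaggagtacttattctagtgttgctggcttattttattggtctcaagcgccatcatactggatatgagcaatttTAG
Lamp2 distal: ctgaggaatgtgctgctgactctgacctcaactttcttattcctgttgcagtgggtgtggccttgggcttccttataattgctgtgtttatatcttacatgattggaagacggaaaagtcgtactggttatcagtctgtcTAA
The proximal and middle exons shared 75 of 140 positions (53.6%), the proximal and distal 57 (40.7%), and the middle and distal 56 (40.0%).

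Gfap encodes the intermediate filament protein of astrocytes. Its proximal exon (chr11:102891396-102891520, minus strand, Gfap-202) is the end of the known delta form, and its distal exon (chr11:102888677-102888721, Gfap-201) that of the common alpha form.
Gfap proximal: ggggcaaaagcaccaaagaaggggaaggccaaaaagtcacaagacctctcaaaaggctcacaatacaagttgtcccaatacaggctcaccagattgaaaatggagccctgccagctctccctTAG
Gfap distal: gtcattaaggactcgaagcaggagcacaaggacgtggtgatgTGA

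Homer1 encodes a scaffold of the postsynaptic density. The proximal exon (chr13:93355940-93356113, plus strand, Homer1-204) ends the short form of 186 codons, known as an activity-induced form that lacks the coiled coil, and the distal exon (chr13:93402041-93402229, Homer1-203) ends the long form of 366 codons.
Homer1 proximal: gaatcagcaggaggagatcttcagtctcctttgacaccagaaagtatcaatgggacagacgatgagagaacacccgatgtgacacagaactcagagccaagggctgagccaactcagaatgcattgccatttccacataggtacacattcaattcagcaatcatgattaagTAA
Homer1 distal: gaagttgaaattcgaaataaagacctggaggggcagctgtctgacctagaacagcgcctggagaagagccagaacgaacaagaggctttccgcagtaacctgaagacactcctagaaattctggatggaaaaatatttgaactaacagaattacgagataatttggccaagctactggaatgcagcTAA

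Slc1a2 encodes the glutamate transporter GLT-1 of astrocytes. The proximal exon (chr2:102777427-102777694, plus strand, Slc1a2-204) carries the end of the b form and the distal exon (chr2:102781463-102781534, Slc1a2-202) that of the a form.
Slc1a2 proximal: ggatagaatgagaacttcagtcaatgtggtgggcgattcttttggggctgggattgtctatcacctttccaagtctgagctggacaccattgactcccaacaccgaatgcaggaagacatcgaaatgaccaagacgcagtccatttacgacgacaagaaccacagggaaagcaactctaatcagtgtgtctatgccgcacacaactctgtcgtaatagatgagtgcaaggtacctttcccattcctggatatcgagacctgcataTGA
Slc1a2 distal: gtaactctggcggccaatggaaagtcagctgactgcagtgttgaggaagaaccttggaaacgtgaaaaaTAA

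Tpm3, which encodes an actin-binding tropomyosin, and Vamp4, which encodes a vesicle SNARE protein, have ends of nearly equal length that are spliced in one for the other. The Tpm3 exons lie on the plus strand at chr3:90098375-90098454 and chr3:90099528-90099610, and the Vamp4 exons on the plus strand at chr1:162594546-162594574 and chr1:162597049-162597077. Vamp4 is shown beside the genes that the naming rule gave, and was chosen after its values were seen.
Tpm3 proximal: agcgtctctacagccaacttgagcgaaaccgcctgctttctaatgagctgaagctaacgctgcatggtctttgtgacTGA
Tpm3 distal: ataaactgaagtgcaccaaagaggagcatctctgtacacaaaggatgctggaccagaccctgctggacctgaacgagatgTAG
Vamp4 proximal: ttcttatagttgtgaaattccgtactTGA
Vamp4 distal: ctcagatcatcctgcacttgaaaaaaTGA

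**Figure D1:**
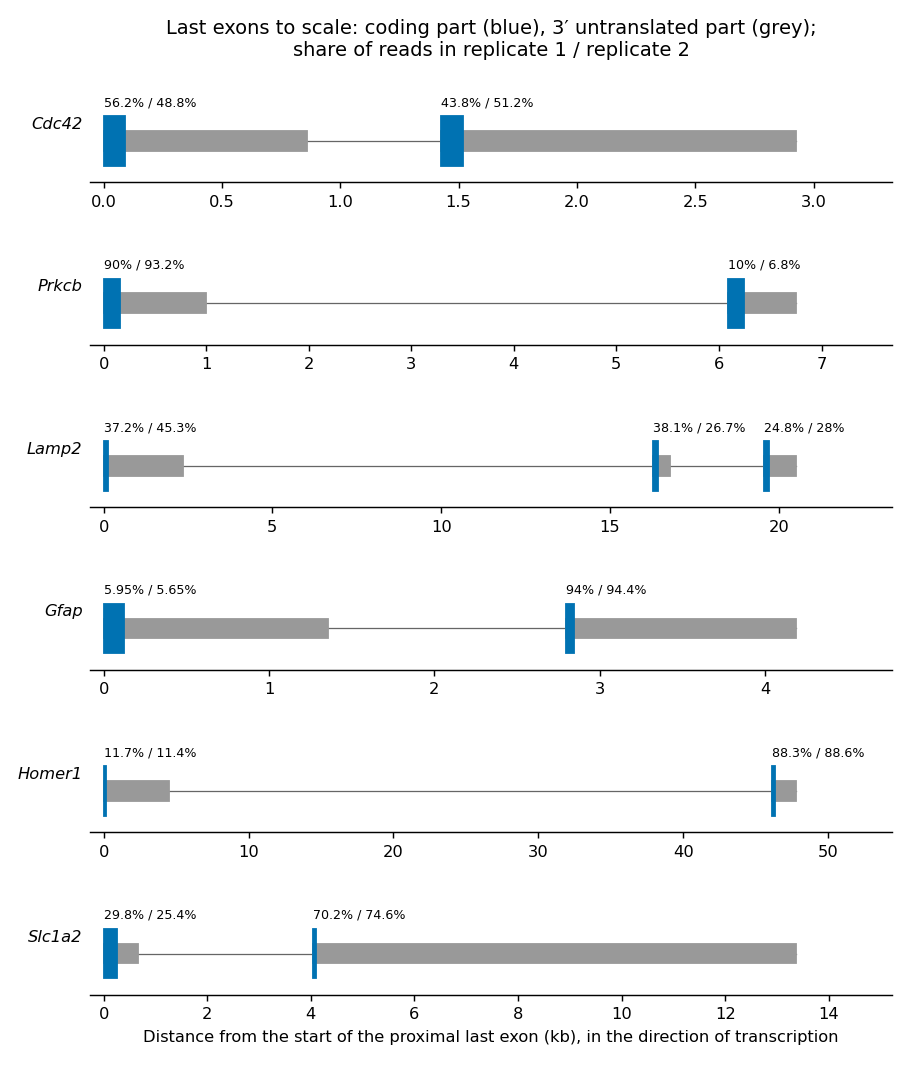
Last exons of 6 genes drawn to scale along the gene, in kb from the start of the proximal last exon; tall blue blocks are the coding part up to the stop codon and low grey blocks the 3′ untranslated part of the most-read model. The numbers over each exon are its shares, first for replicate 1 and then for replicate 2. The distance between the acceptors runs from 1427 bases in Cdc42 to 46101 bases in Homer1.

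Signalling genes used both ends to different degrees. Prkcb had 846 and 452 reads on the proximal exon (replicate 1, replicate 2) and 94 and 33 on the distal exon, so that the beta II end held 90.0% and 93.2%. Cdc42 had 248 and 148 reads on the proximal exon and 193 and 155 on the distal exon. The proximal share of replicate 1 was 56.2%, with a Wilson interval at 95% of 51.6 to 60.8, and that of replicate 2 was 48.8%, with 43.3 to 54.5: both ends were used nearly evenly and the intervals of the libraries overlap. Rasgrf1, an exchange factor for Ras, had 6 and 6 reads on a proximal exon that ends a frame of 178 codons, and 41 and 22 on the distal exon of the frame of 1262 codons. These 3 were the members among 42 signalling genes with 10 or more multi-exon Known reads.

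Olfm1, a secreted glycoprotein of neurons, had the most reads among the genes with both ends well used. The proximal exon had 665 and 397 reads and the distal exon 787 and 581, so that the proximal share was 45.8% (43.3 to 48.4) and 40.6% (37.6 to 43.7). The proximal exon (chr2:28214101-28214106, plus strand, Olfm1-203) adds a single codon before the stop, and the frame of this most-read model is 153 codons, against 485 codons in the most-read model with the distal exon, which carries the olfactomedin domain. Of 1062 proximal reads, 294 lay on Olfm1-205, a processed transcript without a frame. On the distal exon 440 reads lay on Olfm1-204, with 1326 coding bases.
Olfm1 proximal: ggcTAA
Both ends carry the hexamer AATAAA, the common poly(A) signal, close to the annotated 3′ end; both ends of Cdc42 carry ATTAAA, the second most common one. The windows below, of at most 30 bases with the hexamer in capitals, lie at chr2:28214398-28214425 and chr2:28230704-28230733 (plus strand) for Olfm1 and at chr4:137321772-137321801 and chr4:137319707-137319736 (minus strand) for Cdc42.
Cdc42 proximal signal: ttacattttgaaATTAAAaatatacaattg
Cdc42 distal signal: cttttcagatgtATTAAAcaaacaaaaccc
Olfm1 proximal signal: tctcaactgacaAATAAAggcctttccc
Olfm1 distal signal: tatctaaggaacAATAAAgatattaggaga

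Synaptic genes with alternative last exons were Syn2, Gabbr1 and Homer1, 3 of 38 on the list. Syn2, a synaptic vesicle protein with a and b forms that differ at the C terminus, had 254 and 168 reads on the proximal exon and 123 and 102 on the distal exon. The proximal share was 67.4% and 62.2%. All proximal reads were on a model annotated as a retained intron, Syn2-205, without a reading frame, and the Syn2 models span the annotated gene Gm17482. Gabbr1, the first subunit of the GABA-B receptor, had 58 and 41 reads on the proximal exon and 54 and 25 on the distal exon. The proximal models have 3 or 4 exons and a frame of 229 codons, against 844 codons and 18 exons in the distal model. Homer1 had 12 and 8 reads on the short form and 91 and 62 on the long form, a proximal share of 11.7% and 11.4% that was nearly the same in both libraries.

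Cytoskeleton and motor genes gave 4 members of 31. Klc1, a kinesin light chain, had 328 and 209 reads on the proximal exon and 14 and 14 on the distal exon; the frames are 542 and 616 codons. Tpm3 had 16 and 12 proximal reads and 81 and 77 distal reads, a proximal share of 16.5% and 13.5%. Sept8, a septin, had 14 and 5 proximal reads and 134 and 94 distal reads. Dclk1, a doublecortin-like kinase, had 9 and 6 proximal reads, mostly on the model of 363 codons, and 60 and 19 distal reads. In all 4 genes the most used last exon was the same in both libraries. Vamp4 had 91 and 75 proximal reads and 21 and 23 distal reads.

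Myelin and glial genes gave 5 members of 25, and most of their reads lay on a single end. Apoe, the lipid carrier of astrocytes, had 13 and 12 proximal reads and 3950 and 2888 distal reads. Mbp, myelin basic protein, had 18 and 20 proximal reads and 3268 and 1304 distal reads. Gfap had 10 and 7 reads on the end of the delta form and 158 and 117 on that of the alpha form, a proximal share of 5.95% and 5.65%. Slc1a2 had 17 and 15 reads on the b end and 40 and 44 on the a end, a proximal share of 29.8% and 25.4%. Mobp, a myelin protein of oligodendrocytes, had 33 and 11 proximal reads and 166 and 66 distal reads, and 231 of the 232 distal reads lay on a model annotated as a target of nonsense-mediated decay. Excitatory neuron markers, 4 of 4 detected, summed to 4428 and 4058 reads per 1000000 mouse reads (RPM), and striatal ones to 295 and 184. Of the striatal sum, Ppp1r1b alone gave 282 and 180 RPM, while Drd2 had 8 and 3 reads and Adora2a 6 and 0. The 5 markers of myelinating oligodendrocytes summed to 5759 RPM in replicate 1 and 3424 in replicate 2, and 4 of 4 astrocyte markers were detected, at 2534 and 2652 RPM in sum. In tissue, fewer cells of a type and less RNA per cell cannot be told apart. Choroid plexus markers, 2 of 3 detected with Kl at 0, summed to 25.2 RPM in replicate 1 and 257 in replicate 2. Nearly all of this was Ttr, at 25.2 and 256 RPM, and Aqp1 had 0 and 1 reads.

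Among genes of RNA-binding proteins 3 of 43 were members. Khdrbs3, a STAR-family splicing regulator, had 301 and 185 proximal reads and 122 and 52 distal reads, a proximal share of 71.2% and 78.1%. All 174 distal reads of Khdrbs3 lay on models annotated as targets of nonsense-mediated decay, and its models span the annotated gene Gm49422. Srsf10, a splicing factor, had 16 and 23 proximal reads and 20 and 6 distal reads, so that the most used end was the distal one in replicate 1 and the proximal one in replicate 2. Luc7l2, a U1 snRNP-associated factor, had 4 and 7 proximal and 5 and 9 distal reads. Of 23 ion channel, pump and transporter genes, Atp2a2 and Slc1a2 were members. Atp2a2, the calcium pump SERCA2 of the endoplasmic reticulum, had 84 and 47 proximal reads and 166 and 59 distal reads. The most-read models on both exons have the same frame of 1044 codons, the length of the b form, and 220 of 225 distal reads lay on such a model, Atp2a2-203, annotated as a target of nonsense-mediated decay. The annotated frame of 998 codons, that of the muscle form a, had 5 reads.

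Of the other genes with the most reads whose second end held 10% or more in both libraries, Rundc3a, a RUN-domain protein of neurons, had 131 and 70 proximal reads and 237 and 154 distal reads. Dnajb6, a co-chaperone, had 283 and 178 proximal reads, where the most-read model has 242 codons, and 39 and 29 distal reads, where it has 365. Asph, aspartate beta-hydroxylase, had 188 and 121 proximal reads and 26 and 15 distal reads. Ppm1b, a protein phosphatase, had 74 and 55 proximal reads and 114 and 82 distal reads, and Pnkd, a metallo-beta-lactamase-fold protein, 45 and 35 proximal and 103 and 69 distal reads. The split was nearest to even in Stau2, a double-stranded RNA-binding protein of dendritic mRNA transport, with 61 and 33 proximal reads and 52 and 33 distal reads, and in Ppil2, a ubiquitin ligase with a cyclophilin domain, with 42 and 27 proximal and 41 and 37 distal reads. In each of these 7 genes the Wilson intervals of the libraries overlap, as those of the most used last exon do in 132 of all 136 genes.

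**Figure D2:**
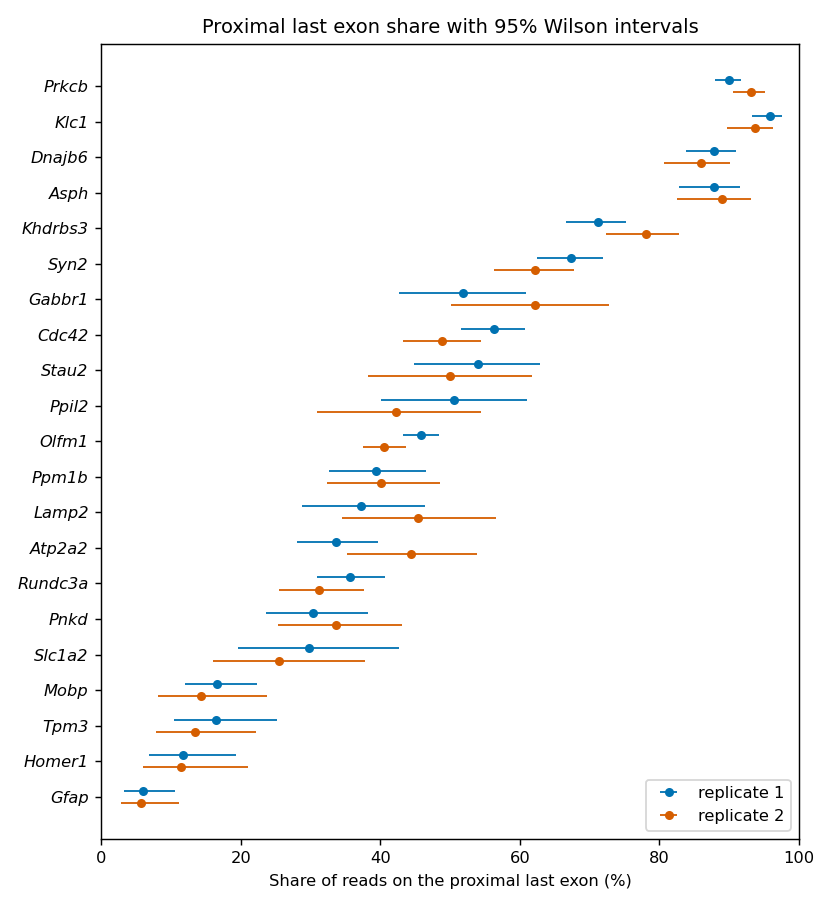
Share of reads on the proximal last exon (%) in replicate 1 (blue, above) and replicate 2 (orange, below) for 21 genes; points are shares and bars 95% Wilson intervals, which cover counting error only. Shares run from 95.9% and 93.7% in Klc1 to 5.95% and 5.65% in Gfap, and the bars of a gene overlap. Over all 136 genes, the intervals of the most used last exon overlap in 132.

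Genes with 3 or more last exons split their reads in various ways. Lamp2 had 42 and 34 reads on the C end, 43 and 20 on the A end and 28 and 21 on the B end, and none of the 3 held more than 45.3% in either library. Mkrn1, a ubiquitin ligase, had 9 and 7, 47 and 36, and 234 and 163 reads from proximal to distal. Rexo2, an oligoribonuclease, had 41 and 25 reads on the proximal, 16 and 6 on the middle and 105 and 54 on the distal exon; the first and the middle belong to models annotated as retained introns. Nisch, the imidazoline receptor nischarin, had 1 read in replicate 1 and 9 in replicate 2 on its proximal exon, 32 and 15 on the middle and 104 and 60 on the distal exon. The gene 1500011B03Rik had 18 and 13, 10 and 3, and 81 and 69 reads. Cdadc1, with 4 last exons, had 10 and 5, 9 and 3, 45 and 28, and 7 and 7 reads from proximal to distal, so that an inner exon was the most used one in both libraries.

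Over all 136 genes the distal last exon was the most used in 84 (61.8%), the proximal in 48 (35.3%) and a middle one in 4. The second most used last exon held a median of 29.0% of a gene's reads (quartiles 13.1 and 40.0); it held 20% or more in 85 genes and under 5% in 12. At the threshold of 10 reads, Fgfr1op2, Shisa4, Npm1, Lrrtm1 and Vps50 were just inside, with 10 reads on the second last exon beside 263, 210, 179, 110 and 105 on the first. Pfn2, Tprgl, Baiap2, Hnrnpa2b1 and Gria2 were just outside, with 9 reads on a second last exon beside 1142, 675, 398, 347 and 324.

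The acceptors of a gene lay 8419 bases apart in the median, from 247 to 378772. The widest were A830018L16Rik (378772 bases), Wdr70 (219862), St6galnac5 (153966), Vps53 (130800) and Arpp21 (116798). A830018L16Rik had 47 and 38 proximal and 9 and 1 distal reads, Wdr70 19 and 13 proximal and 18 and 14 distal, St6galnac5 7 and 3 proximal and 27 and 16 distal, and Vps53 3 and 8 proximal and 57 and 37 distal.

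The last exons differed in kind by position. Of the proximal acceptors 95 of 136 also begin an internal exon of another GENCODE transcript of the gene, against 3 of 10 middle and 11 of 136 distal ones. In 90 of the 95 the last exon runs past the end of the internal exon, by a median of 760.5 bases. In 24 of 136 genes, Known models splice the same donor to more than 1 of the last exons. Proximal last exons were shorter, with a median of 852 bases, against 1251 for distal ones. The most-read model was protein-coding for 101 proximal and 125 distal exons, a retained intron for 25 and 2, a processed transcript for 7 and 0, and a target of nonsense-mediated decay for 1 and 7.

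The annotated protein differed in most pairs. The most-read proximal and distal models had different frames in 90 genes, the same frame in 10, and no frame in 1 or both in 36. Among the 87 pairs with both frames complete, the proximal frame was shorter in 69, longer in 16 and of equal length in 2, Cdc42 and Vamp4. The median frame was 275 codons with the proximal exon and 459 with the distal exon. The models of a pair can also differ in their first and internal exons, so these differences are not those of the last exon alone. In 23 of the 87 the proximal frame had less than 50% of the length of the distal one, and in 27 they differed by less than 30 codons. The 10 genes with the same frame in both most-read models were Khdrbs3, Rell2, Atp2a2, Bod1, Hnrnpa1, Ppil2, Lrrtm1, AC149090.1, Nkx6-2 and Tti2. Other models on the same last exons can have another frame, such as Hnrnpa1-201 with 48 reads on the proximal exon.

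**Figure D3:**
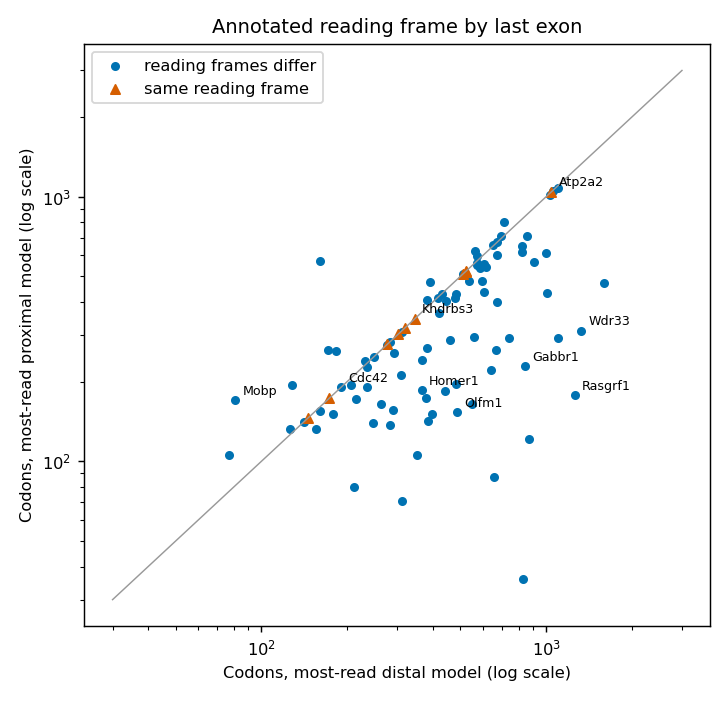
Codons in the annotated frame of the most-read proximal model (vertical, log scale) against the most-read distal model (horizontal, log scale), 1 point per gene with both frames complete; triangles are genes with the same frame. Most points lie under the line of equal length: the proximal frame was shorter in 69 of 87 pairs with different frames.

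Poly(A) signals were searched as AATAAA and ATTAAA in the last 50 bases of the most-read model, on the transcribed strand, where the annotated end is complete; a window with both counts under AATAAA. Of 132 proximal exons 71 held AATAAA and another 16 ATTAAA, 65.9% in all. Of 135 distal exons 90 held AATAAA and another 20 ATTAAA, 81.5% in all. In the rest of the series, 7766 genes with a single acceptor of 10 or more reads, the share was 79.4%. Among proximal exons the share was 77.6% of 98 whose most-read model is protein-coding, and 32.4% of 34 of other types. Prkcb and Syn2 had neither hexamer in the proximal window.

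The same acceptors were then read in models that the rule did not use. Incomplete models, new combinations of annotated splice sites and models with an unannotated splice site were counted by the acceptor of their last intron. Those at the acceptor of a member last exon held 5077 reads in replicate 1 and 3480 in replicate 2: 2806 on incomplete models, 4473 on new combinations and 1278 on models with an unannotated site. Where such a model stops was not checked, so one that stops within an internal exon beginning at that acceptor counts as well. In 99 genes with 10 or more such reads, the distal exon held a median of 84.6% of them, against 61.0% of the Known reads of the same genes. It was higher in 75 genes and lower in 24. The rule asked for 10 or more Known reads on each last exon and set no such minimum on these reads. The 2 shares were therefore not selected alike, and how much of the difference follows from that was not tested. Where the proximal model was not protein-coding, in 22 genes, the median was 94.5%, against 65.1% of Known reads; in the other 77 it was 77.3%, against 60.3%. Across the 99 genes the share of the most used last exon correlated with its share in these reads at a Pearson r of 0.40 and a Spearman rho of 0.39; the genes share both libraries.

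In 15 genes with 100 or more reads of each kind, the share of the most used exon differed by 10 percentage points or less in 6 and by more in 9, with a median difference of 11.1 points. The proximal exon of Cdc42 held 47.0% of 230 such reads, against 53.2% of Known reads, and that of Prkcb 89.9%, against 91.1%. The distal exon of Rundc3a held 80.7% of such reads, against 66.0% of Known reads, that of Nisch 96.3%, against 74.2%, and that of Ppil2 38.2%, against 53.1%. In 22 of the 99 genes another last exon was the most used in these reads. Arpp21, a cAMP-regulated phosphoprotein of neurons, had 234 and 179 Known reads on the proximal exon and 8 and 8 on the distal exon, but 58 and 28 against 195 and 143 outside the Known class. Of its proximal Known reads 70.5% lay on models whose 3′ end the annotation marks as not found. Gabbr1 had 8.89% of such reads on the proximal exon, and Wdr33, a subunit of the poly(A) signal-binding complex, 18.5%. Tpm3 had 97.2% of 506 such reads on the distal exon, against 84.9% of Known reads, and Dclk1 99.5% of 195, against 84.0%. In the opposite direction, Cops7a, a subunit of the COP9 signalosome, had a distal share of 40.0% of 30 Known reads and 0.319% of 313 others.

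**Figure D4:**
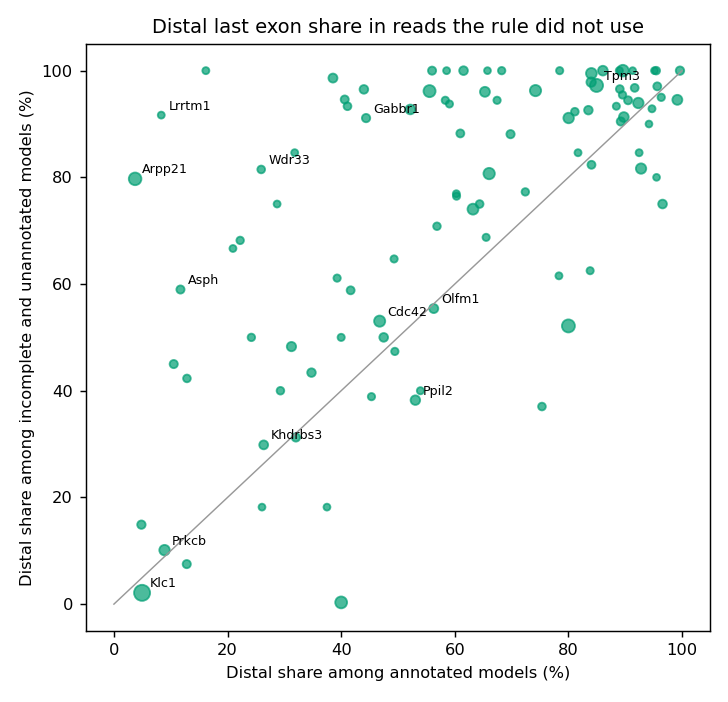
Share on the distal last exon (%) among incomplete and unannotated models (vertical) against that among Known models (horizontal), 1 point per gene with 10 or more reads outside the Known class; larger points have more such reads. Of 99 genes, 75 lie above the line of equal shares, and Arpp21 and Lrrtm1 stand far above it. The minimum of 10 reads per last exon applied to the Known reads alone.

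The libraries were compared gene by gene. The share of the most used last exon was tested against the others with a two-sided Fisher exact test and Benjamini-Hochberg adjustment over the 136 genes. None passed an adjusted p of 0.05, which is 0% of the genes tested, with 0.185 as the smallest; at an unadjusted p under 0.05 there were 13 (9.56%). Among the 120 genes left out for overlapping last exons, 7 were under that unadjusted p (5.83%). With adjustment over all 256 genes with 2 or more acceptors, 3 genes (1.17%) passed, all of them among the 120 left out. The median difference between the libraries was 5.56 percentage points in either direction, and 3.72 in the 64 genes with 100 or more reads. The most used last exon was the same in 114 genes. Across genes the proximal share correlated between the libraries at a Pearson r of 0.89 and a Spearman rho of 0.89; the points differ widely in depth. Among the 13, chosen after their values were seen, Cstf3 had a distal share of 48.5% with 33 reads in replicate 1, and 87.0% with 23 in replicate 2 (Fisher exact test, adjusted p = 0.185), and Prpf31, a splicing factor, 68.2% of 66 and 87.0% of 54 (adjusted p = 0.356). Olfm1 had 54.2% of 1452 and 59.4% of 978 (adjusted p = 0.335).

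**Figure D5:**
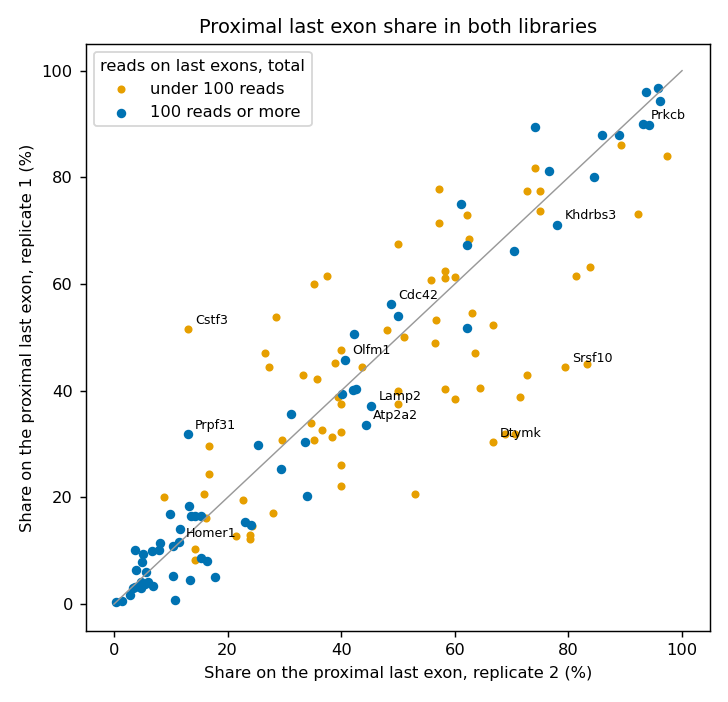
Share of reads on the proximal last exon (%) in replicate 1 (vertical) against replicate 2 (horizontal), 1 point per gene; blue points have 100 or more reads on last exons over both libraries and orange points fewer. The blue points lie near the line of equal shares, with a median difference of 3.72 percentage points, and no gene passed the test between the libraries.

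Long reads join the first and the last exon of an RNA, so their pairing can be counted. In 23 genes, 2 or more first exons upstream of the proximal last exon had 10 or more reads each in Known models or full chains outside the annotation. The most used first exon was set against the others by the share of the most used last exon, with Fisher exact tests per library adjusted over the 23 genes. Of these, 3 genes (13.0%) passed in both libraries in the same direction. In Arpp21, reads from the most used first exon had the proximal last exon in 95.3% of 170 in replicate 1 and 87.3% of 126 in replicate 2, against 39.5% of 228 and 45.3% of 170 from the 7 other first exons (adjusted p = 3.58e-33 and 6.52e-13). Those 7 were not alike. The second most used first exon had 61 and 51 proximal reads and 9 and 9 distal reads. The third had 9 and 6 proximal reads and 46 and 31 distal reads. In Rell2, a membrane protein, the distal share was 99.4% of 161 and 100% of 116 reads, against 89.2% of 74 and 87.0% of 46 (adjusted p = 0.00377 and 0.00236). The other first exons of Rell2 held different reads: 1 had 66 and 40 distal reads and no proximal read, and 1 had 8 and 6 proximal reads and no distal read. The call rests on the reads of that last one. Of those reads, 7 and 6 lay on the Known model Rell2-210, through which alone the proximal exon is a member. The annotation and the rule thus set most of this pairing, and its p-values cannot show a link. The third was AC149090.1, a gene on an unplaced contig, with 97.6% of 125 and 92.5% of 133, against 66.7% of 18 and 31.2% of 16 (adjusted p = 0.00133 and 9.07e-07). On annotated models alone, 8 of 14 genes (57.1%) passed. A Known model can hold only a pairing that the annotation lists, and Known reads are also part of the 3 of 23. Both counts are therefore set in part by the annotation, and neither can show a link. Olfm1 had reads in all 4 pairings: 494 and 282 reads joined its most used first exon to the proximal exon and 537 and 394 to the distal exon, and 180 and 118, and 255 and 191, came from the other first exon. The distal share of the most used first exon minus that of the other was -6.54 and -3.53 percentage points and did not pass (adjusted p = 0.063 and 0.628).

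Genes of the machinery that cuts 3′ ends and chooses last exons were read at the level of whole genes. Of 46 on the list, 42 had 10 or more reads, with a median of 47.7 RPM. The neuronal splicing factor Rbfox3 stood at 394 RPM in replicate 1 and 320 in replicate 2, and the cleavage factor subunit Cstf2t at 151 and 133. By an exact binomial test adjusted over 11339 genes, of which 0.882% were called, 1 gene of the list differed: Pabpn1, the nuclear poly(A)-binding protein, had 75 reads (69.9 RPM) in replicate 1 and 101 (134 RPM) in replicate 2, a log2 ratio, replicate 1 over replicate 2, of -0.94 (adjusted p = 0.00475). On annotated models alone it had 54 and 70 reads and did not pass (adjusted p = 0.0614), where 0.405% of 8636 genes were called; 3 of 34 list genes, and 7.83% of all, had an unadjusted p under 0.05 there. At an unadjusted p under 0.05 there were 5 genes of 42 with Pabpn1 included, beside 8.60% of all 11339 genes. Of the list, 3 were themselves members. Papola, the canonical poly(A) polymerase, had 19 and 13 proximal reads and 30 and 20 distal reads. Cstf3, a cleavage stimulation factor subunit, had 17 and 3 reads on the proximal exon, all on a retained-intron model, and 16 and 20 on the distal exon. Wdr33 had 28 and 12 proximal reads, on a frame of 312 codons, and 10 and 4 distal reads, on the frame of 1330 codons. A list of 26 genes whose last exon choice is described in textbooks or reviews had 19 with 10 or more multi-exon Known reads, of which 11 were members; it was compiled for this property.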

How the data were processed

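The deposited tables hold raw counts of reads per transcript model, 1 table per library. Per the file headers, the authors used mm10 and GENCODE M21, and the tables class models as Known, incomplete or unannotated; aligner and version: not given in the sources used here. Only models with at least 1 read are listed. ERCC and SIRV spike-ins were left out. A read whose 5′ end is cut short is counted outside Known or under a shorter annotated model, so a share is that of full matches.

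Reads per last-intron acceptor were summed by gene; annotation and sequences came from GENCODE M21. Shares have 95% Wilson intervals, which cover counting error only. Fisher exact and exact binomial tests (SciPy 1.17.1, tested on simulated data) were adjusted by Benjamini-Hochberg; 0.5 reads were added before log2 ratios. The libraries differed by more than sampling noise over genes (chi-square 1.56 per degree of freedom). TMM factors came from edgeR 4.0.16.

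Genes were named by a rule: the most-read genes with a second share of 10% or more, the most-read members of 7 lists, genes with 3 or more last exons, even splits, proximal use, the widest distances, and neighbours of the threshold. Members and lists were chosen with earlier results of these data known; the first-exon test was added after seeing the data.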

Additional observations from a re-analysis of the deposited data

How the results depend on the processing

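No paired analysis was possible because the series has 1 group. No member gene passed the test between the libraries under any alternative run: other minimums, merged exons, other model classes, every last exon tested, or adjustment over 256 genes (added after seeing the data), where 3 genes that are no members passed (1.17%). The number of members follows the minimum: 282 genes with 581 last exons at 5 reads per acceptor, and 71 with 145 at 20. Leaving out 1 library gave 61 to 82 genes and 123 to 168 last exons. The share of genes whose distal exon was the most used was 66.7% at 5 reads, 54.9% at 20, 57.3% with protein-coding transcripts only, 66.2% with unannotated and incomplete models, and 55.7% to 58.5% without either library. The median second share was 20.0% at 5 reads, 32.8% at 20, 26.7% with overlapping last exons merged, 26.8% with protein-coding transcripts, 29.7% without genes that span another gene, 26.2% with unannotated and incomplete models, and 30.4% to 31.7% without either library. On annotated models alone, 0 genes of the 3′ end processing list passed the exact binomial test of 34 tested, beside 0.405% of 8636 genes; 3 of the 34 were at an unadjusted p under 0.05, beside 7.83% of all. On annotated models 8 of 14 genes passed the test of first against last exons, against 3 of 23 together with full unannotated chains. Both counts include Known reads and are set in part by the pairings that the annotation lists. The median distal share outside Known was 90.8% with full unannotated chains only and 84.6% to 87.5% in single libraries; these alternatives were chosen after seeing the data. Of 43 named genes, the share of the most used exon moved by more than 1 SD of the libraries in 21 with unannotated and incomplete models, by up to 37.8 points. Genes with few reads limit the comparison: 102 of 136 had 20 or more reads in both libraries.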
